A study of Homo sapiens with 4 samples.

Results

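The 10 genes studied here belong to the YAP and TEAD programme and were read from arrays of UNC50 knockdown cells. They were taken by name, as every non-control probe that the scanner output assigns to CTGF, CYR61, ANKRD1, AMOTL2, LATS2, TEAD1, TEAD4, AXL, YAP1 or WWTR1. The rule uses no measured value, but the genes were listed with earlier results of these data known. The rule found 10 genes and 10 probes, 1 probe for each gene, among 34809 gene names and 42405 probes on the array. CTGF and CYR61 are the array's older symbols for CCN2 and CCN1. Only 6 of the 10 are targets in the strict sense (CTGF, CYR61, ANKRD1, AMOTL2, LATS2 and AXL), while YAP1, WWTR1, TEAD1 and TEAD4 encode the factors that act on them.

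In the Hippo pathway, the MST kinases activate the LATS kinases, which phosphorylate YAP1 and its paralog TAZ, the product of WWTR1. YAP1 and TAZ are then held in the cytoplasm and degraded. When the kinases are inactive, as in sparse and well-spread cells, YAP1 and TAZ enter the nucleus, bind TEAD transcription factors on the DNA and switch on genes for matrix proteins, adhesion and growth. In liver cells the pathway restrains proliferation and organ size, and its targets include inhibitors that feed back on it.

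The cells were Hep3B, a human hepatocellular carcinoma line, which lacks RB and P53 and has a hepatitis B virus background. They carried a pLKO.1 plasmid for a mock hairpin (shR-MOCK) or for 1 of 3 short hairpins against UNC50, which encodes a membrane protein of the Golgi. The hairpins shR-467, shR-554, shR-749 are named for the base of the UNC50 mRNA that each targets. All cells had been transfected with Lipofectamine and selected with puromycin. Each condition was 1 culture on 1 one-colour Agilent array. The 3 hairpins are different reagents against the same gene and were treated as 3 replicates of knockdown, so their SD also holds what is particular to a hairpin. With 1 mock culture, no spread between control cultures can be given. The arrays shared 1 slide and 1 scan. The density of the cultures at harvest is not given in the sources used here.

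Levels are scaled signals, the processed signal as a percent of that array's 75th percentile over 58717 non-control spots, and differences are log2 of hairpin over mock. Values for the hairpins are given in the order in which they were named above, ± the SD of the 3. The share of spots with a signal well above background ran from 67.6% to 73.6%. UNC50 itself had a scaled signal of 447% on the mock array and of 107.4%, 61.4% and 83.8% with the 3 hairpins, that is, 24.0%, 13.7% and 18.7% of mock. The hepatoma markers ALB and AFP were well above background on every array, with log2 differences of 0.25 ± 0.06 and 0.91 ± 0.67 (SD, n = 3 hairpins).

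The best known DNA element of this programme is the TEAD site, with the core letters GGAATG. Promoter sequences from RefSeq (GRCh38.p14), of which the 250 bases before each transcription start were searched, were matched by gene ID for 7 of the 10 genes, with 10 start sites in all. CYR61, TEAD1 and TEAD4 were not matched. The core was found on either strand in 5 of these 10 windows, 1 each for CTGF, ANKRD1, AMOTL2, AXL and YAP1, where 11.9% of all 35116 promoters in the table hold it. It was found more than once in CTGF and ANKRD1, as in 0.928% of all promoters. The AP-1 site TGACTCA, found on either strand in 4.20% of all promoters, and the CArG box bound by serum response factor, found in 1.16%, had no match in any of the 10 windows. The 3 windows printed here belong to target genes that were lower in the knockdown cells on average, at chr6:131951373-131951622 for CTGF, chr10:90921088-90921337 for ANKRD1 and chr3:134374448-134374697 for the second of 2 AMOTL2 starts. All lie on the minus strand and are written 5′ to 3′ in the direction of transcription, ending at the base before the start, with each GGAATG or its reverse complement CATTCC in capitals.
CTGF: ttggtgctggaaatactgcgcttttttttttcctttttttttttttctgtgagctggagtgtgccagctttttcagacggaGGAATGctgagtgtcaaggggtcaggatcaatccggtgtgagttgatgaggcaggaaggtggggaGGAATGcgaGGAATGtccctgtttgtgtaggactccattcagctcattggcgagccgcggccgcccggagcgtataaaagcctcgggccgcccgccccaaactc
ANKRD1: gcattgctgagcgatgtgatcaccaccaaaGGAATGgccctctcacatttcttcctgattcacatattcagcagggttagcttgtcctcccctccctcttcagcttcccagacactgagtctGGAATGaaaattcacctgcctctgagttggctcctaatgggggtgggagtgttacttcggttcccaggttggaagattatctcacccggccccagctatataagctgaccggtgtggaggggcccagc
AMOTL2: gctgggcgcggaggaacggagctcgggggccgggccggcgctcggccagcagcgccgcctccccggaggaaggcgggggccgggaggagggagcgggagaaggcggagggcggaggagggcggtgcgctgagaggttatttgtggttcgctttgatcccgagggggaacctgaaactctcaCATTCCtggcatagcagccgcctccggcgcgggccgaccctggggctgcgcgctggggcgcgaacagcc

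The CTGF window held 3 cores, beginning at -169, -104 and -95 from the start, the last pair separated by 3 letters, and all read in the direction of the gene. ANKRD1 held 2, at -220 and -128. AMOTL2 held 1, at -69 and on the opposite strand, while its other start had none. YAP1 had 1 at -162 and AXL had 1 at -212 of its second start. LATS2 and both starts of WWTR1 had none. A match is a stretch of letters and not a measured binding site, and no match says only that these letters are not in the window.

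**Figure D1:**
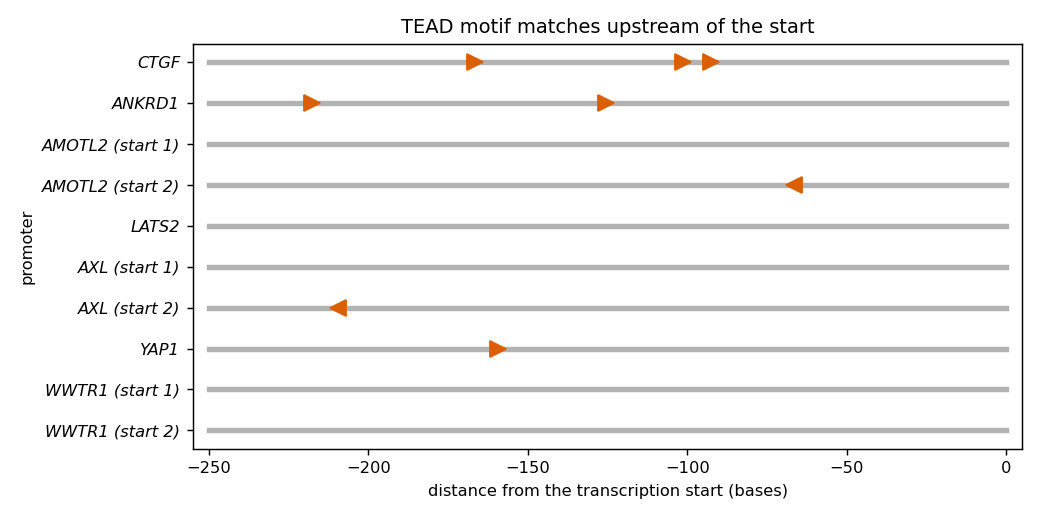
Matches of the TEAD core (triangles, pointing in the direction in which the core reads) in the 250 bases upstream of 10 RefSeq starts of 7 genes (grey lines), by distance from the transcription start in bases. CTGF holds 3 matches, ANKRD1 2, and AMOTL2, AXL and YAP1 1 each at 1 start.

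Each of the 10 genes gave a signal well above background on every array. Averaged over the hairpins, 9 of the 10 were below the mock array, as were 54.5% of all 25149 genes tested. Of the 30 single differences 26 were below 0, against 52.6% of those of all genes tested. The differences of a gene share its single mock value, so the 30 are not independent. CTGF, CYR61, ANKRD1 and AMOTL2 passed 1.5-fold lower on average, which is 4 of 10 genes, where 7.69% of all genes tested did so and 2.92% of the 21488 genes well above background on all arrays. None of the 10 passed 1.5-fold higher, which 2.29% of all genes did. The median over the 10 genes was -0.43 on the log2 scale, beside -0.03 over all genes tested.

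The mock array was the highest of the 4 arrays for 7 of the 10 genes, namely CTGF, CYR61, AMOTL2, LATS2, TEAD1, YAP1 and WWTR1. It was the highest for 20.6% of all genes tested and for 18.4% of those well above background on all arrays. It was the lowest for none of the 10, and for 17.5% of all genes. A lone array set against 3 others gives an exact permutation p of at least 0.25, so no single gene can pass a threshold by its order alone.

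None of the 10 passed 1.5-fold with every hairpin, in a background of 1.23% lower and 0.537% higher. Of the 21488 genes well above background on all arrays, 102 passed lower and 122 higher with every hairpin. The shares for single hairpins are over all genes tested, which include dimmer genes. With shR-467, 4 of the 10 passed 1.5-fold lower (CYR61, ANKRD1, AMOTL2 and YAP1; 6.77% of all genes) and none higher (7.29%). With shR-554, 4 did so (CTGF, CYR61, ANKRD1 and AMOTL2; 16.0% of all genes) and none higher (4.41%). With shR-749 it was 2, CTGF and YAP1, beside 10.4% of all genes, and again none higher (5.41%). No gene of the 10 was past the threshold in all 3 lists, and the hairpins share the mock array.

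In the limma fit across all 25149 genes, 0 had an adjusted p under 0.05, a background of 0.0%, and 381 had an unadjusted p under 0.05. CTGF and AMOTL2 were among the latter, and each of the 10 genes had an adjusted limma p of 0.9998. UNC50 itself, with the smallest p of all genes, had an adjusted limma p of 0.613. Of 200 genes simulated with a 4-fold change, limma called 0. The lack of calls thus does not show that the 10 genes were unchanged. The differences below are therefore described by their size and their spread between hairpins, and none is called changed by a test.

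**Figure D2:**
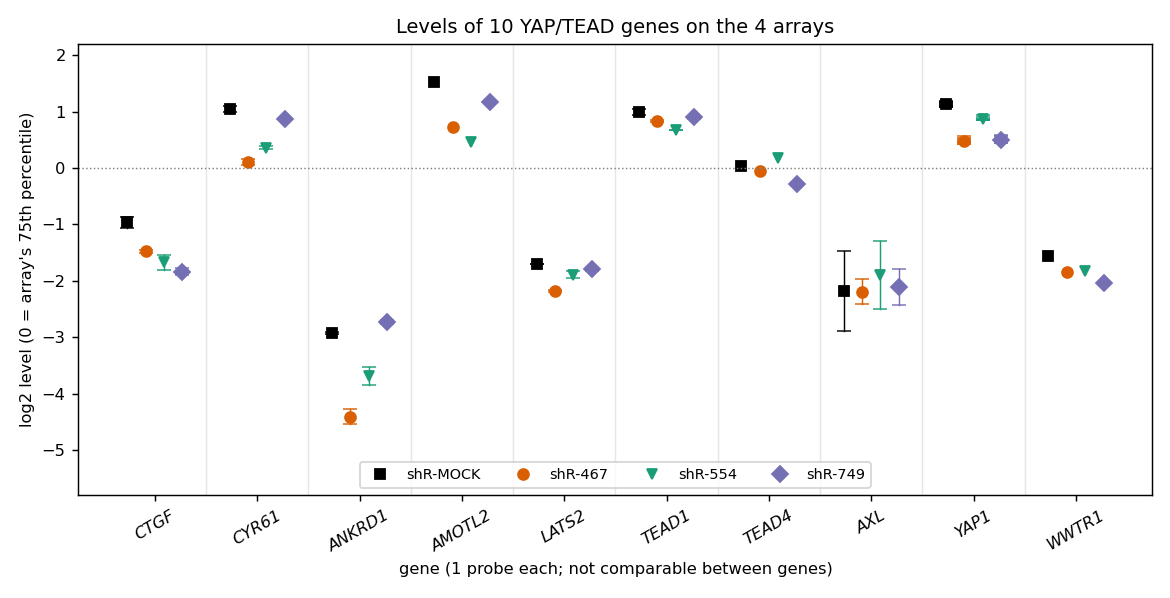
Level of each of the 10 genes on the mock array (black squares) and with the 3 hairpins (coloured symbols), as log2 of the signal over the array's 75th percentile. Bars with caps span the spots of a probe printed more than once. The mock array lies above all hairpins for 7 genes, and the 2 spots of AXL lie far apart.

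CTGF encodes connective tissue growth factor, a secreted matrix protein and the most used readout of YAP activity. Its scaled signal was 51.4% on the mock array and 35.9%, 31.4% and 28.0% with the 3 hairpins. Every hairpin lay below mock, and the range of the hairpins (0.36 on the log2 scale) was smaller than the gap from mock to the nearest of them (0.52). The log2 differences were -0.52, -0.71 and -0.88, with a mean of -0.70 ± 0.18 (SD, n = 3 hairpins). The limma 95% confidence interval ran from -1.33 to -0.07. Of the 10 genes, only CTGF and AMOTL2 had an interval that lay wholly below mock. The interval ran from -1.34 to 0.14 for CYR61 and from -2.14 to 0.78 for ANKRD1. For YAP1 it ran from -1.08 to 0.06 and for WWTR1 from -0.97 to 0.27. The probe is printed in 2 spots, which gave mean differences of -0.55 and -0.85, so that the first spot alone stays short of 1.5-fold.

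CYR61 encodes another secreted protein of the same CCN family, an early target that binds integrins. Its scaled signal was 207% on the mock array and 108%, 128% and 183% with the 3 hairpins. The mock array was again the highest, yet shR-749 lay close to it and the hairpins spanned a wider range (0.76) than the gap to mock (0.18). The log2 differences were -0.94, -0.69 and -0.18, with a mean of -0.60 ± 0.39. This mean is near the threshold of 0.585: it was -0.43 without shR-467, -0.56 without shR-554 and -0.57 with normexp background correction or with the second spot alone.

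ANKRD1 encodes a nuclear ankyrin-repeat protein first described in stressed heart muscle and is a direct TEAD target. Its scaled signal was 13.1% on the mock array and 4.70%, 7.77% and 15.1% with the 3 hairpins. 2 hairpins lay below mock and shR-749 above it, so the groups overlap. The differences of -1.48, -0.76 and 0.21 average -0.68 ± 0.85, a spread larger than the mean. Without shR-467 the mean was -0.28, and with normexp it was -0.40.

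CTGF and CYR61 did not rank the hairpins alike. CTGF was lowest with shR-749 and CYR61 and ANKRD1 were lowest with shR-467, the hairpin that left the most UNC50 signal. Across the 10 genes, 5 were lowest with shR-467, 3 with shR-749 and 2 with shR-554, the hairpin that left the least UNC50 signal. Near ties enter this tally. YAP1 had log2 levels of 0.48 with shR-467 and 0.50 with shR-749, and AXL with shR-467 differed from mock by -0.01. A relation to the UNC50 signal was not tested.

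AXL encodes a receptor tyrosine kinase and was the only target of the 6 with a mean above mock. Averaged over its 2 spots, the scaled signal was 22.0% on the mock array and 21.9%, 26.8% and 23.2% with the 3 hairpins, a mean log2 difference of 0.12 ± 0.15. The 2 spots disagree, however. On the mock array they read 151 and 402 units of signal, an SD of 0.999 on the log2 scale that exceeds 99.8% of probes printed in 2 spots. The first spot alone gave differences of 0.92, 0.39 and 0.46 (mean 0.59) and the second -0.94, 0.18 and -0.31 (mean -0.35). No direction can be given for AXL from these arrays.

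**Figure D3:**
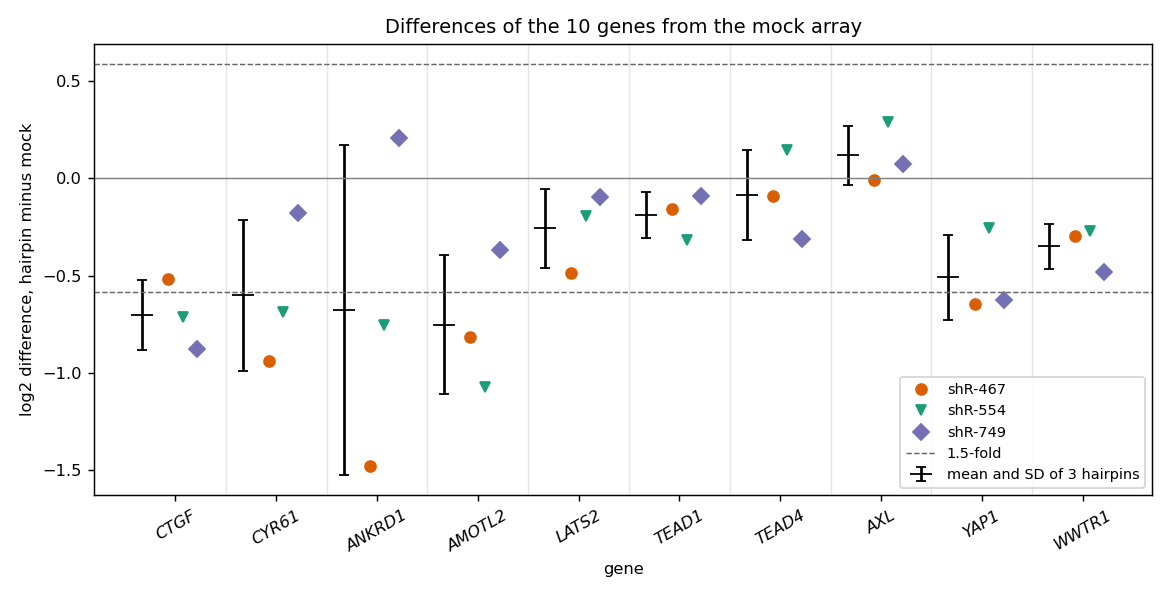
Log2 difference from the mock array for each of the 10 genes with the 3 hairpins (coloured symbols), with the mean and SD of the 3 hairpins (black) and dashed lines at 1.5-fold. The means of CTGF, CYR61, ANKRD1 and AMOTL2 lie below the lower line, and the SD of ANKRD1 reaches past 0.

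AMOTL2 and LATS2 act as brakes on the pathway. AMOTL2, an angiomotin relative that holds YAP1 at cell junctions and activates LATS kinases, had the lowest mean of the 10 genes. Its scaled signal was 289% on the mock array and 165%, 137% and 224% with the 3 hairpins. Mock was the highest array by 0.37 on the log2 scale, less than the range of the hairpins (0.70). The differences of -0.81, -1.07 and -0.37 gave a mean of -0.75 ± 0.36, with a limma 95% confidence interval from -1.45 to -0.06, and AMOTL2 stayed past 1.5-fold on average without each hairpin in turn (-0.94 to -0.59). It is printed in 1 spot.

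LATS2, the kinase that phosphorylates YAP1 and TAZ, had scaled signals of 30.8% on the mock array and 22.0%, 26.9% and 28.8% with the 3 hairpins. All hairpins lay below mock, shR-749 by 0.10 only. The mean difference was -0.26 ± 0.20, short of 1.5-fold.

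The coactivators were also lower. YAP1, printed in 10 spots and so the best measured of the 10 genes, had a scaled signal of 219% on the mock array and 140%, 183% and 142% with the 3 hairpins. The SD between its spots was at most 0.05 on the log2 scale on each array, far under the differences of -0.64, -0.26 and -0.62. Every hairpin lay below mock by at least 0.26, a gap smaller than the hairpin range of 0.39. The mean of -0.51 ± 0.22 is 70.3% of mock and misses 1.5-fold, which it passed without shR-554 (-0.63).

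WWTR1, which encodes TAZ, read 34.1% on the mock array and 27.8%, 28.3% and 24.4% with the 3 hairpins. The hairpins lay close together (range 0.21) and all below mock, by 0.27 at the least. The mean difference was -0.35 ± 0.12, or 78.5% of mock. The protein and the phosphorylation of YAP1 and TAZ, by which the pathway mainly acts, are not measured by these arrays.

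The DNA-binding partners differed little from mock. TEAD1, the main TEAD of many tissues, had scaled signals of 199% on the mock array and 178%, 160% and 187% with the 3 hairpins, with mock highest and a mean difference of -0.19 ± 0.12. TEAD4, often the dominant TEAD of cancer cell lines, read 103% on mock and 96.4%, 114% and 82.6%. Here the mock array lay between the hairpins, and the mean of -0.09 ± 0.23 turns to 0.03 without shR-749. Of the other family members, fixed in a list of cofactors and paralogs, TEAD3 was above mock with all 3 hairpins (0.61, 0.30 and 0.52, mean 0.48 ± 0.16) and TEAD2 was at 0.03 ± 0.29.

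Probe positions, each of 60 bases, come from the annotation of the array and refer to hg19. CTGF was read at chr6:132270130-132270189, CYR61 at chr1:86048953-86049012, ANKRD1 at chr10:92672562-92672621 and AMOTL2 at chr3:134074742-134074801. LATS2 was read at chr13:21547929-21547988, TEAD1 at chr11:12965225-12965284, AXL at chr19:41767395-41767454, YAP1 at chr11:102100584-102100643 and WWTR1 at chr3:149238593-149238652. The annotation gives no position for the TEAD4 probe. Whether these positions are exonic, or which isoforms they take in, was not analysed here.

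The upstream kinases and adaptors were compared as a list of 21 genes, all of them tested. WTIP, FRMD6 and AMOTL1 passed 1.5-fold lower on average and none passed higher, with a list median of -0.14. FRMD6, a FERM-domain activator of the Hippo kinases, was the steadiest of them, with differences of -0.53, -0.80 and -0.66 (mean -0.66 ± 0.13). WTIP, an Ajuba-family inhibitor of LATS kinases, was at -0.76 ± 0.63, with shR-749 near mock (-0.07). AMOTL1, the relative of AMOTL2, was at -0.64 ± 0.52 with its brighter probe and at -0.05 with the other. With normexp 1 gene of this list passed instead of 3. The mock array was highest for 8 of the 21. NF2, STK3 and LATS1, core members of the cascade, had means of -0.22 ± 0.66, -0.26 ± 0.47 and 0.04 ± 0.12.

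Among the cofactors and paralogs 11 of 13 genes were tested and none passed 1.5-fold in either direction with its brightest probe, with a median of -0.04. Of 4 RUNX1 probes the brightest was at -0.39 and the lowest at -0.68, past 1.5-fold. SMAD3, the partner of TAZ in TGF-beta signalling and among the brightest of the list, was at 0.03 ± 0.08. The medians of both lists lay above that of the 10 genes (-0.43), a difference that was not tested.

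A wider list of 32 other reported YAP and TEAD targets stood closer to all genes. Of these, 26 were tested, and 25 of them gave a signal well above background on every array. Of the 25, 1 passed 1.5-fold lower, ANXA3, where 2.92% of all such genes did, and 1 passed higher. CCDC80 was at -0.19 with its brighter probe, which was counted, and at -0.84 with the other. The median of the 26 was -0.18. ANXA3, a calcium-dependent phospholipid-binding protein, was lower with every hairpin (-0.73, -0.55 and -0.75, mean -0.68 ± 0.11). WISP2, a CCN family gene, had a signal well above background in mock alone, at 21.1 units, which gives no bound on a fold, so it is not counted as past 1.5-fold here. ITGB2, the leukocyte integrin chain, passed higher at 0.63 ± 0.65 and rested on shR-749 (1.32).

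BIRC5 and CAV1, both often counted with these targets, were at -0.36 ± 0.18 and -0.36 ± 0.25, and THBS1 and F3 at -0.03 ± 0.43 and 0.01 ± 0.23. The mock array was highest for 9 of the 26 genes, or 34.6%, against 7 of the 10. AJUBA (JUB on the array) and PTPN14 are in this list and in that of the kinases and adaptors.

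**Figure D4:**
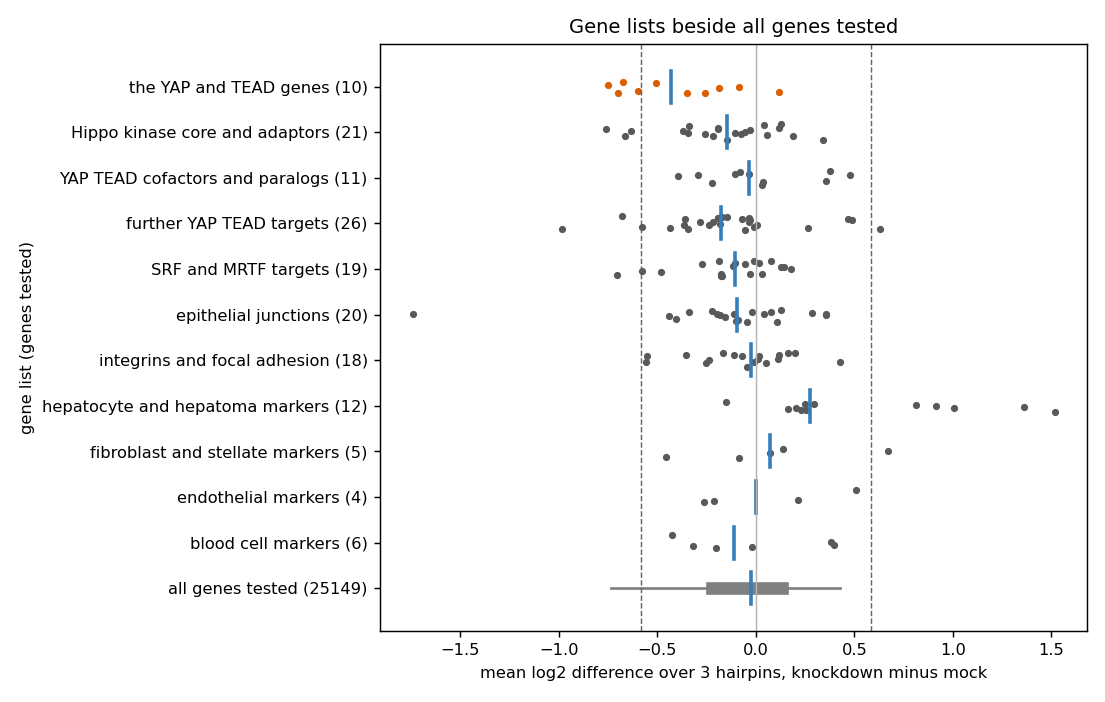
Mean log2 difference over the 3 hairpins for each tested gene (points) of the 10 YAP and TEAD genes (orange), of 6 pathway lists and of 4 lists of cell type markers (grey), with list medians (blue) and dashed lines at 1.5-fold. For all genes tested the thick bar spans the quartiles and the thin bar the 5th to 95th percentile. The median of the 10 genes is -0.43, and the medians of the pathway lists lie between -0.18 and -0.03.

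CTGF, CYR61 and ANKRD1 are also read by the actin-sensing factors MRTF and SRF, so the targets of these were compared. Of 20 such genes 19 were tested and 1 passed 1.5-fold lower, FLNA, which encodes the actin crosslinker filamin A (-0.71 ± 0.35 with its brighter probe, -0.17 with the other). None passed higher, and the median was -0.11. Of 3 FHL2 probes the brightest, which was counted, was at 0.08 and the lowest at -1.21. Vinculin (VCL) was at 0.02 ± 0.03 and beta-actin (ACTB) at -0.01 ± 0.16.

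Cell junctions and matrix contacts feed into the pathway. Of 20 genes of epithelial junctions, all tested, 1 passed 1.5-fold lower, CLDN2, which encodes a pore-forming claudin of tight junctions. It was past 1.5-fold with every hairpin (-0.92, -2.50 and -1.81, mean -1.74 ± 0.79). None passed higher, the list median was -0.10, and E-cadherin (CDH1) was at -0.11 ± 0.06. Of 20 integrin and focal adhesion genes 18 were tested and none passed in either direction, with a median of -0.03. The brightest of them, BCAR1, an adaptor of integrin signalling, and ITGAV, an integrin chain that CYR61 protein binds, were at 0.12 ± 0.21 and -0.56 ± 0.42.

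CTGF and CYR61 are also strongly expressed by fibroblasts and endothelial cells, so markers of other cell types were read as well. Of 10 fibroblast and stellate cell markers, COL1A1, COL3A1, THY1 and LRAT were well above background on no array, and the summed scaled signal of the 10 was 0.583 times the 75th percentile on mock and 0.651 to 0.738 times with the hairpins. The brightest, DES, was at 0.07 ± 0.14 and LUM passed 1.5-fold higher at 0.67 ± 0.30. Of 8 endothelial markers 4 gave signals well above background throughout, the brightest being PECAM1 (0.21 ± 0.58), and their sum was 0.297 on mock and 0.296 to 0.411 with the hairpins. Of 7 blood cell markers on the array 6 were, led by CD68 (-0.02 ± 0.22), with sums of 4.76 and of 4.49 to 6.14.

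Markers of the hepatoma cells themselves were higher beside the lower YAP and TEAD targets. Of 12 hepatocyte and hepatoma markers, 5 passed 1.5-fold higher (FGA 1.52 ± 0.86, FGG 1.36 ± 1.00, APOA1 1.01 ± 0.38, AFP 0.91 ± 0.67 and TTR 0.81 ± 0.29) and none lower, and the summed scaled signal was 529 times the 75th percentile on mock and 645 to 745 times with the hairpins. Their part in the result was not tested, and neither was that of culture density or of a single mock culture.

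The genes most like CTGF and CYR61 across the 4 arrays were sought among the 21488 genes well above background on all of them, by the root mean square difference of their centred log2 levels. Nearest to CTGF were an intergenic noncoding RNA (0.03), TNFRSF11A (0.04), AKR1C4 (0.04), the unnamed probe A_33_P3286929 (0.04) and CSPG5 (0.05), and 50 genes lay within 0.1. Nearest to CYR61 were SYT12 (0.03), EXD3 (0.04), FLJ25006 (0.04) and 2 intergenic noncoding RNAs (0.04 and 0.05), with 22 genes within 0.1. Over 4 arrays such a likeness is a description only. Among the 10 genes WWTR1 was the nearest to CTGF (0.17, place 375 of all) and AMOTL2 the nearest to CYR61 (0.19, place 232), while CTGF and CYR61 were 0.40 apart.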

How the data were processed

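Total RNA from the 4 Hep3B cultures was labelled with Cy3 and hybridised to 1-colour Agilent arrays. The authors deposited the output of Agilent Feature Extraction (version 10.7.1.1 in the submitters' processing notes), in which each spot has a background-subtracted processed signal, an intensity, and a table of log2 values, which was used as an alternative. The array's own gene names were kept, of which 8 of the 10 matched a RefSeq symbol and 2 a synonym.

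From the processed signal, log2 was taken and each array's 75th percentile subtracted. Outlier spots were dropped and the rest averaged by probe. A probe entered when at least 1 of the groups had it well above background on each of its arrays, and the brightest such probe stood for its gene. The number of arrays limits the precision. The threshold of 1.5-fold follows the study's methods. Where a gene was not well above background in a group, only a bound is possible.

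Differences were tested with limma 3.58.1 in R 4.3.3 (mean-variance trend, Benjamini-Hochberg adjustment, 2 residual degrees of freedom, prior 4.98), which assumes that the lone mock array varies like the hairpins. On simulated data with 200 of 25149 genes changed 4-fold, 198 passed 1.5-fold, 99.5% had the right sign and limma called 0. Python 3.11.15, numpy 2.4.6 and pandas 2.3.3 were used.

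The 10 genes and all lists were chosen with earlier results of these data known. Named from a list are up to 4 genes past 1.5-fold, otherwise the 2 brightest (1 of which is not reported here), and the brightest marker of each cell type. Other genes (NF2, STK3, LATS1, TEAD2, TEAD3, BIRC5, CAV1, THBS1, F3, VCL, ACTB, CDH1 and those of the last section) were named after their values were seen. Alternatives were other normalizations and background corrections, filters, the probe mean, a 2-fold threshold, limma without the trend, the methods' t-test, each hairpin left out and, chosen after seeing the data, single spots.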

Additional observations from a re-analysis of the deposited data

How the results depend on the processing

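The mock array was highest for the same 7 genes under each scaling and background correction tried. Filters and the probe mean could not change this, as each of the 10 genes has 1 probe well above background on every array. With 1 hairpin left out the count cannot fall, and it was 7 or 8. The mock array was then highest for 27.7% to 38.3% of all genes. Without shR-467 the mock array was also lowest for 1 of the 10, for which no share of all genes is given. The count past 1.5-fold on average was 4, but 2 with normexp (CTGF and AMOTL2), 0 at 2-fold and 2 to 4 with 1 hairpin left out, the lowest without shR-467 (CTGF and AMOTL2). The share of all genes that passed lower moved as well. It was 7.69% in the main setting, 1.1% with normexp and 2.28% at 2-fold. With 1 hairpin left out it ran from 5.93% without shR-554 to 11.6% without shR-467. Past 1.5-fold with every remaining hairpin were 1 to 3 genes, the most without shR-749. With fewer hairpins any gene meets this more easily, and no share of all genes is given. These counts are therefore not read as a result about the 10 genes. With the first spot alone the count was 4, without CTGF and with AXL higher, and with the second it was 3, without CYR61. Of 132 alternative values of single genes 130 lay within 1 SD of the hairpins from the main value, the others being the AXL spots (0.59 and -0.35). Much of this was fixed in advance and is no measure of stability. Leaving out 1 of 3 hairpins cannot move a mean by a full SD. The filters, the probe mean and the raising of low signals cannot move genes with 1 bright probe at all. limma called none of the 10 in any setting; over all genes it called 0, except 4 with normexp, 2 without shR-554 and 1 without shR-749, and 0 by the methods' t-test (646 at an unadjusted p under 0.05).

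For the wider target list, the lower count over all 26 tested genes, WISP2 included, was 2. It was 3 with quantile normalization, with the authors' log2 values and without a filter on dim probes. It was 1 with normexp, with low signals raised and with all 4 arrays required above background. At 2-fold it was 0, and with 1 hairpin left out it was 2 to 4. The higher count was 0 with normexp and at 2-fold and 1 to 3 with 1 hairpin left out, and the median was then -0.19 to -0.059. Of all genes past 1.5-fold, 77.1% were lower, but 51.0% with normexp, 59.8% with low signals raised, 62.8% without a filter, 55.5% with all 4 arrays above background and 63.3% without shR-554. Slide and scan were shared by the 4 arrays, so neither could be fitted as a block. No paired analysis was possible because the mock group has 1 array. Dim signals, most of all ANKRD1 with shR-467 at 1.80 times the array's floor for signals well above background, limit the precision. The cause of these moves was not tested.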

Other observations

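Several other reported targets of the pathway differed between hairpins in sign, so that their means hide larger single values. AREG, an EGFR ligand induced by YAP, was at -0.70 with shR-467 and at 0.80 and 0.71 with shR-554 and shR-749. EDN1, the endothelin-1 precursor, was at -1.43 with shR-467 and 0.34 with shR-749. ANXA1 was at -0.57 and -0.72 with shR-467 and shR-554 and at 0.64 with shR-749. Each value rests on 1 array per hairpin, these genes were picked for their spread, and the differences between hairpins were not tested.

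The collagen-binding integrin chain ITGA2 was at 0.81 and 1.79 with shR-467 and shR-554, from signals of 23.0 units on mock and 98.8 with shR-554. With shR-749 its signal of 9.33 units was not well above background, where the lowest such signal on that array was 25. Its value of -1.32 with shR-749 is therefore not a measured fall. Among the junction genes, the claudins went opposite ways: CLDN1 was above mock with every hairpin (0.40, 0.28 and 0.39), and so were the tight junction plaque genes CGN (0.38, 0.20 and 0.48) and TJP1 (0.27, 0.26 and 0.32), while CLDN2 was below mock with every hairpin.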
